A study of Mus musculus with 47 samples.

Results

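Luminal progenitor cells (LP) of the mouse mammary gland were compared between ovariectomized mice given estradiol, progesterone and the antagonist mifepristone (EP+RU486) and ovariectomized mice given estradiol and progesterone without it (EP). The comparison rests on 8 of the 47 libraries of the series, chosen because their labels give the LP fraction and one of these treatments, with 4 separate mice in each group. Every mouse was of the FVB strain, lacked its ovaries and had been treated for 14 days. The EP+RU486 mice were numbers 304, 308, 324 and 329, and the EP mice were numbers 306, 311, 322 and 327. Values of single mice are given in these orders. The other LP groups, which shared the fit, were EP with telapristone acetate (EP+TPA, mice 312, 323, 328 and 336) and sham treatment (mice 301, 305, 310 and 326). The doses, routes and ages are not given in the labels used here. None of the groups received estradiol alone or mifepristone without hormones. The cells were sorted by flow cytometry, so each library is the pooled RNA of one sorted fraction of 1 mouse.

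Progesterone acts in the mammary epithelium largely through the luminal mature cells that carry its receptor. These cells release ligands such as RANKL (Tnfsf11), Wnt4 and amphiregulin (Areg), which reach neighbouring cells that mostly lack the receptor, among them luminal progenitors. Luminal progenitors bear the receptor tyrosine kinase Kit and the transcription factor Elf5, divide under progesterone, and give rise to the alveolar cells that make milk. Mifepristone is a steroid that occupies the progesterone receptor and the glucocorticoid receptor without activating them fully. The comparison asks which of the transcripts of these cells under estradiol and progesterone depend on receptors that mifepristone blocks.

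Levels are given as rescaled values of the deposited fragment counts normalised to gene length and library size (FPKM), brought to a common scale across libraries. In the deposited values of the 16 LP and of 6 basal libraries, 9336 genes share one lowest value each, whose origin is not given in the sources used here, so that a level near the lowest value of its gene is uncertain. Differences are on the scale of log2(FPKM + 1), EP+RU486 minus EP, which compresses the changes of genes near 0. The sum of the deposited values ran from 299705 to 358375 in the 8 libraries, and 10603 to 11315 genes lay above 1. Read depth is not known for any library. In such pooled RNA, fewer cells of a type and less RNA per cell cannot be told apart.

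The luminal label held for Epcam, Krt14 and Acta2, while Krt8 and progenitor genes did not set every LP library apart from the basal fraction. Over the 16 LP libraries and 6 libraries of the basal fraction (MSC) that share these lowest values, Epcam, a surface protein of epithelium, lay at 405 to 950 in LP and at 163 to 329 in MSC. Krt8, a luminal keratin, lay at 782 to 3413 in LP and at 309 to 909 in MSC, so that its ranges overlapped. Krt14, a basal keratin, lay at 63.3 to 87.4 in LP and at 244 to 3468 in MSC, and Acta2, the actin of contractile cells, lay at 52.1 to 71.3 in LP and at 255 to 3315 in MSC. Kit lay at 34.2 to 53.3 in EP+RU486, at 12.6 to 54.0 in EP and at 12.1 to 24.0 in MSC. In EP mouse 327 the progenitor markers Elf5 (3.44) and Aldh1a3 (5.94) lay within their MSC ranges of 2.56 to 6.07 and 5.91 to 10.7. The other EP mice and the EP+RU486 mice lay above these ranges. Csn3 (86.2) and Lcn2 (159) in mouse 327 lay below their lowest MSC values of 87.5 and 244. EP mice 306 and 322 lay within the MSC ranges for Csn3 (136.5 and 165, MSC up to 336.5) and for Lcn2 (382 and 399, MSC up to 1022). EP mouse 311 and the EP+RU486 mice lay above both ranges. The pan-leukocyte gene Ptprc stayed under 1 in all 16 LP libraries.

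The EP libraries of mice 311 and 327 stood apart from the others of their group. The mean of the luminal mature markers, centred on the 16 LP libraries, was 0, -0.59, -0.57 and -0.66 in the EP+RU486 mice, against 1.21, -0.46, 1.24 and 1.77 in the EP mice. Mouse 311 of the EP group thus lay with the EP+RU486 mice for these markers and not with the other EP mice. For the 24 tested luminal progenitor markers the mean was 0.07, 0.12, 0 and 0.14 in the EP+RU486 mice, against -0.64, 0, -0.54 and -1.48 in the EP mice. Mouse 327 was the lowest, and its library also had the highest means of the endothelial markers (1.11), the fibroblast markers (1.54) and the erythroid and muscle markers (1.77). Among muscle genes Acta1 reached 90.3 in that library, against 1.44 to 2.58 in EP+RU486. For the mitosis genes the EP mice did not overlap the EP+RU486 mice, at -0.19, -0.03, -0.19 and -0.36 in EP+RU486, against 1.66, 1.33, 0.98 and 0.97 in EP. Values without mouse 311, without mouse 327 or without both therefore stand beside several of the results.

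**Figure D1:**
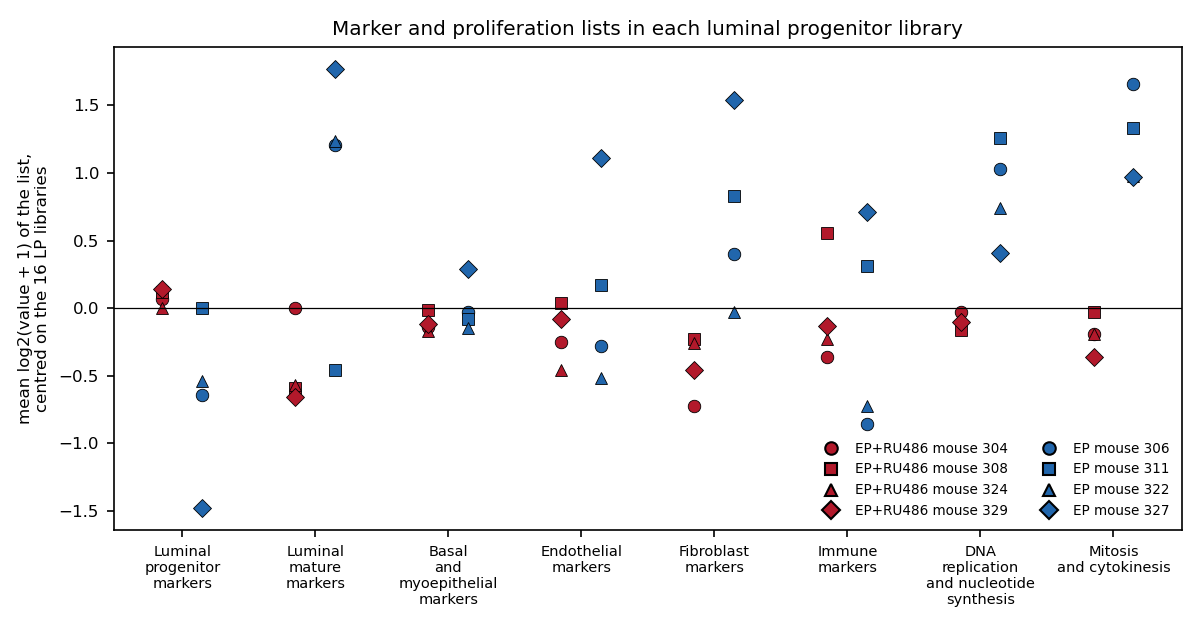
Means of marker and proliferation lists in each LP library: log2(FPKM + 1) averaged over the tested members and centred on the 16 LP libraries (y axis), with EP+RU486 mice in red to the left and EP mice in blue to the right of each list (x axis). EP mouse 311 (square) lies at -0.46 for the luminal mature markers, beside the EP+RU486 mice, and EP mouse 327 (diamond) lies at -1.48 for the luminal progenitor markers, while both proliferation lists are higher in all 4 EP mice.

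Mifepristone was followed by a difference at 2375 of 11384 genes tested (20.9%) in limma with Benjamini-Hochberg adjustment over all of them. Of these, 1028 were higher (9.03% of the genes tested) and 1347 were lower (11.8%) in EP+RU486. A difference of at least 1 was reached by 299 of the higher and 473 of the lower genes, and one of at least 3 by 8 and 17. The 4 values of one group did not overlap those of the other at 2356 genes (20.7%), with EP+RU486 above at 1120 (9.84%) and below at 1236 (10.9%). The median difference over all genes was -0.02. When the libraries were not rescaled, the median was -0.11 and the division moved to 723 higher and 1963 lower genes. With both mouse 311 and mouse 327 left out, 2182 genes were called, 1803 of which were among the 2375 in the same direction. For orientation, EP+RU486 differed from sham at 10.6% and EP differed from sham at 32.4% of the genes tested.

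The genes of cell division were lower in EP+RU486. Of the 42 tested members of a list of DNA replication and nucleotide synthesis genes, 36 fell and 0 rose, with a median difference of -0.92. Of the 43 tested members of a list of mitosis and cytokinesis genes, 43 fell, with a median of -1.42. The 4 members that did not reach the filter were E2f2, Clspn, Cenpe and Cenpf, whose highest values were 0.0988, 0.102, 0.446 and 0.261 in EP+RU486, against 0.459, 0.926, 1.59 and 1.28 in EP. The filter asked for a value of 1 in at least 3 of the 16 LP libraries, and some of these genes reached 1 only in EP, so that these counts describe the members and are no test of the lists. No member of either list rose under any alternative. With both mice 311 and 327 left out, 28 of 28 tested mitosis genes and 29 of 35 tested replication genes fell, and under the stricter filter 4 of 4 and 20 of 25.

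Among the replication genes, Mcm2, a subunit of the helicase that opens DNA at origins, measured 10.7, 10.04, 8.04 and 8.45 in EP+RU486, against 26.6, 32.5, 23.2 and 18.9 in EP. All 4 EP+RU486 values were below the lowest EP value, and the difference was -1.33 (SE 0.14, adjusted p = 1.63e-05). Uhrf1, which carries DNA methylation through replication, measured 2.79, 2.61, 3.26 and 2.05 in EP+RU486, against 17.1, 19.5, 13.2 and 9.10 in EP. Its difference was -2.06 (SE 0.18, adjusted p = 7.27e-06). Rrm2, a subunit of the enzyme that makes deoxyribonucleotides, averaged 2.56 ± 1.36 in EP+RU486 and 16.1 ± 2.64 in EP (SD, n = 4 each), the widest difference of this list at -2.33. Chaf1b, a chaperone that lays histones on new DNA, fell to 4.71 ± 0.40 in EP+RU486, against 16.5 ± 3.65 in EP. The replication clamp Pcna, used in repair as well, measured 47.3, 42.5, 44.1 and 48.6 in EP+RU486, against 56.9, 87.6, 57.8 and 42.3 in EP, and did not pass the test (-0.37, adjusted p = 0.186).

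The mitosis genes fell further on this scale. Stmn1, which controls microtubule turnover, measured 27.3, 23.8, 28.3 and 22.2 in EP+RU486, against 145, 99.5, 124 and 68.8 in EP, a difference of -2.02 (SE 0.19, adjusted p = 8.24e-06). Top2a, the topoisomerase that untangles sister chromosomes, measured 2.18, 2.15, 1.41 and 0.79 in EP+RU486, against 9.99, 8.86, 5.02 and 5.88 in EP (-1.68, SE 0.20, adjusted p = 4.48e-05). In both genes the EP+RU486 mice lay wholly below the EP mice, mice 311 and 327 included. Ube2c, which marks mitotic cyclins for destruction, averaged 4.72 ± 2.18 in EP+RU486 and 27.4 ± 6.40 in EP, the largest difference of the list at -2.35. Birc5, Ccna2 and Mybl2, a subunit of the chromosomal passenger complex, a cyclin and a transcription factor of cycling cells, differed by -2.02, -1.89 and -1.42. Mki67, the gene of the proliferation antigen Ki-67, was low in every library, at 0.348, 0.370, 0.369 and 0.173 in EP+RU486 and 1.78, 1.51, 1.45 and 1.08 in EP (-0.90, SE 0.11, adjusted p = 4.53e-05).

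These levels did not all come down to those of the sham mice. Mcm2 averaged 9.30 ± 1.26 in EP+RU486, against 4.42 ± 0.47 in sham, and the difference of 0.92 passed the test (adjusted p = 6.97e-04). The mean of the replication list lay between -0.16 and -0.03 in EP+RU486, between -0.35 and -0.26 in EP+TPA and between -0.49 and -0.43 in sham. For the mitosis list it lay between -0.36 and -0.03 in EP+RU486, between -0.54 and -0.28 in EP+TPA and between -0.66 and -0.59 in sham.

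Of 17 tested cyclins, cyclin-dependent kinases and their inhibitors, 5 fell and 3 rose, and 1 rose without mouse 322, 327 or 329. Ccne1, the cyclin that starts S phase, averaged 0.719 ± 0.297 in EP+RU486 and 3.32 ± 1.49 in EP (-1.28, adjusted p = 7.63e-04). Cdk4 averaged 98.6 ± 5.17 in EP+RU486 and 162 ± 14.3 in EP, and Cdk2 9.30 ± 0.22 in EP+RU486 and 13.4 ± 1.40 in EP, both without overlap. Rb1, which holds cells before S phase, rose to 42.5, 56.8, 36.2 and 39.8 in EP+RU486, against 12.7, 24.3, 8.82 and 6.90 in EP, a difference of 1.79 (SE 0.30, adjusted p = 7.61e-04). Ccnd1, the cyclin D often placed downstream of progesterone, measured 54.0, 75.6, 48.4 and 48.2 in EP+RU486, against 55.3, 97.2, 34.8 and 36.2 in EP, and was not called (0.12, SE 0.31, adjusted p = 0.83). Its sign turned without mouse 308, 322 or 327. Cdkn1a, which encodes the cycle inhibitor p21, fell to 34.0 ± 3.62 in EP+RU486, against 53.5 ± 6.70 in EP (-0.63, adjusted p = 0.0184), and lost the call without EP+RU486 mouse 304 or EP mouse 322, where the highest adjusted p was 0.0588, and without both mice 311 and 327 (adjusted p = 0.0812).

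Enzymes of one-carbon metabolism supply replication with nucleotides. Of 18 tested serine, folate and one-carbon genes, 7 fell and 1 rose, and 4 fell when EP+RU486 and EP were fitted alone. Phgdh, the first enzyme of serine synthesis, measured 7.85, 4.71, 5.57 and 5.41 in EP+RU486, against 29.5, 13.9, 34.6 and 42.9 in EP (-2.10, SE 0.28, adjusted p = 1.50e-04). Tyms, which makes thymidylate and also stands in the replication list, differed by -0.96. Of 20 tested polyamine, histone and chromatin genes, 8 fell and 1 rose. Without mouse 306 the number that fell was 4, and without mouse 322 or 329, or with EP+RU486 and EP fitted alone, it was 5. Hells, a remodeller tied to DNA methylation, averaged 2.15 ± 0.69 in EP+RU486 and 7.43 ± 2.65 in EP (-1.38), and the maintenance methyltransferase Dnmt1 averaged 13.7 ± 1.44 in EP+RU486 and 21.4 ± 3.89 in EP (-0.60).

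The 250 bases before their start sites were read from RefSeq promoters of build GRCm38.p6, whereas the deposited values were made on mm9. Cell-cycle promoters are known for the CHR element (TTTGAA), for CCAAT boxes and for E2F sites, here TTTCCCGC or TTTGGCGC, all searched on both strands. Of 33 mitosis members with a promoter in the table, 11 held a CHR element (33.3%), 23 a CCAAT box (69.7%) and 10 both (30.3%). Among all 8928 tested genes with a promoter, 10.4% held a CHR element, 36.5% a CCAAT box and 3.98% both. Among all 27025 promoters of the table the shares were 16.3%, 34.5% and 5.73%. Of 36 replication members with a promoter, 6 held an E2F match (16.7%), against 2.65% of the tested genes and 1.35% of all promoters, and none of the mitosis members did. The 3 mitosis promoters and the replication promoter below show these arrangements, read 5′ to 3′ on the gene's strand and ending at the base before the start. Capitals mark CHR and CCAAT matches in the first 3 and the E2F match in Mcm5. Mki67 and Top2a were taken from the named mitosis genes because they held both matches, and Cdk1 and Mcm5 were chosen after their values had been seen. Mcm2 and Uhrf1 held no E2F match.
Mki67 (chr7:135716380-135716629, minus strand): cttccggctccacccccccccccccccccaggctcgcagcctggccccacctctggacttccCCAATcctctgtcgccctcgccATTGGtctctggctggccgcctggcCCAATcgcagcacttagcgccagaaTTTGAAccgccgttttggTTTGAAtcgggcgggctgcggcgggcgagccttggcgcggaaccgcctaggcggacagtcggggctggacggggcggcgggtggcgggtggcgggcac
Top2a (chr11:99024190-99024439, minus strand): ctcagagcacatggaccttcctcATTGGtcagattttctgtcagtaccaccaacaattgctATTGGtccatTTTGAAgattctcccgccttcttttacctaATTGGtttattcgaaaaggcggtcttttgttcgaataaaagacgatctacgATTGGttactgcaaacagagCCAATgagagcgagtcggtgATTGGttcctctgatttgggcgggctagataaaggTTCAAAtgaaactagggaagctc
Cdk1 (chr10:69352913-69353162, minus strand): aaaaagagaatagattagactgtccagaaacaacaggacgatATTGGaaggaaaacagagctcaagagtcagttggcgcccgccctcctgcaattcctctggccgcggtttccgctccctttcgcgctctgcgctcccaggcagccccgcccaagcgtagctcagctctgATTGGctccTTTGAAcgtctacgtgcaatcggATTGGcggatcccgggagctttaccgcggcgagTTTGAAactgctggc
Mcm5 (chr8:75109259-75109508, plus strand): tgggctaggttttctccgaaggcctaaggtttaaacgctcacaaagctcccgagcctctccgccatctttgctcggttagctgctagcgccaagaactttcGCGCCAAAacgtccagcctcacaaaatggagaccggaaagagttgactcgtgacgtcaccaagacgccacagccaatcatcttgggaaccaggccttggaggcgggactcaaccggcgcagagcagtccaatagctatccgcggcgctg

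In Mki67 the CHR matches lay 116 to 111 and 98 to 93 bases before the start, and in Cdk1 they lay 71 to 66 and 15 to 10 bases before it. Cdk1, the kinase that drives entry into mitosis, averaged 1.45 ± 0.60 in EP+RU486 and 6.60 ± 2.13 in EP (-1.62, adjusted p = 3.49e-05). Mcm5, another helicase subunit, averaged 8.28 ± 0.86 in EP+RU486 and 28.3 ± 11.2 in EP (-1.56, adjusted p = 1.92e-04), with its E2F match 149 to 142 bases before the start. These matches are descriptions of letters, and binding was not measured.

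**Figure D2:**
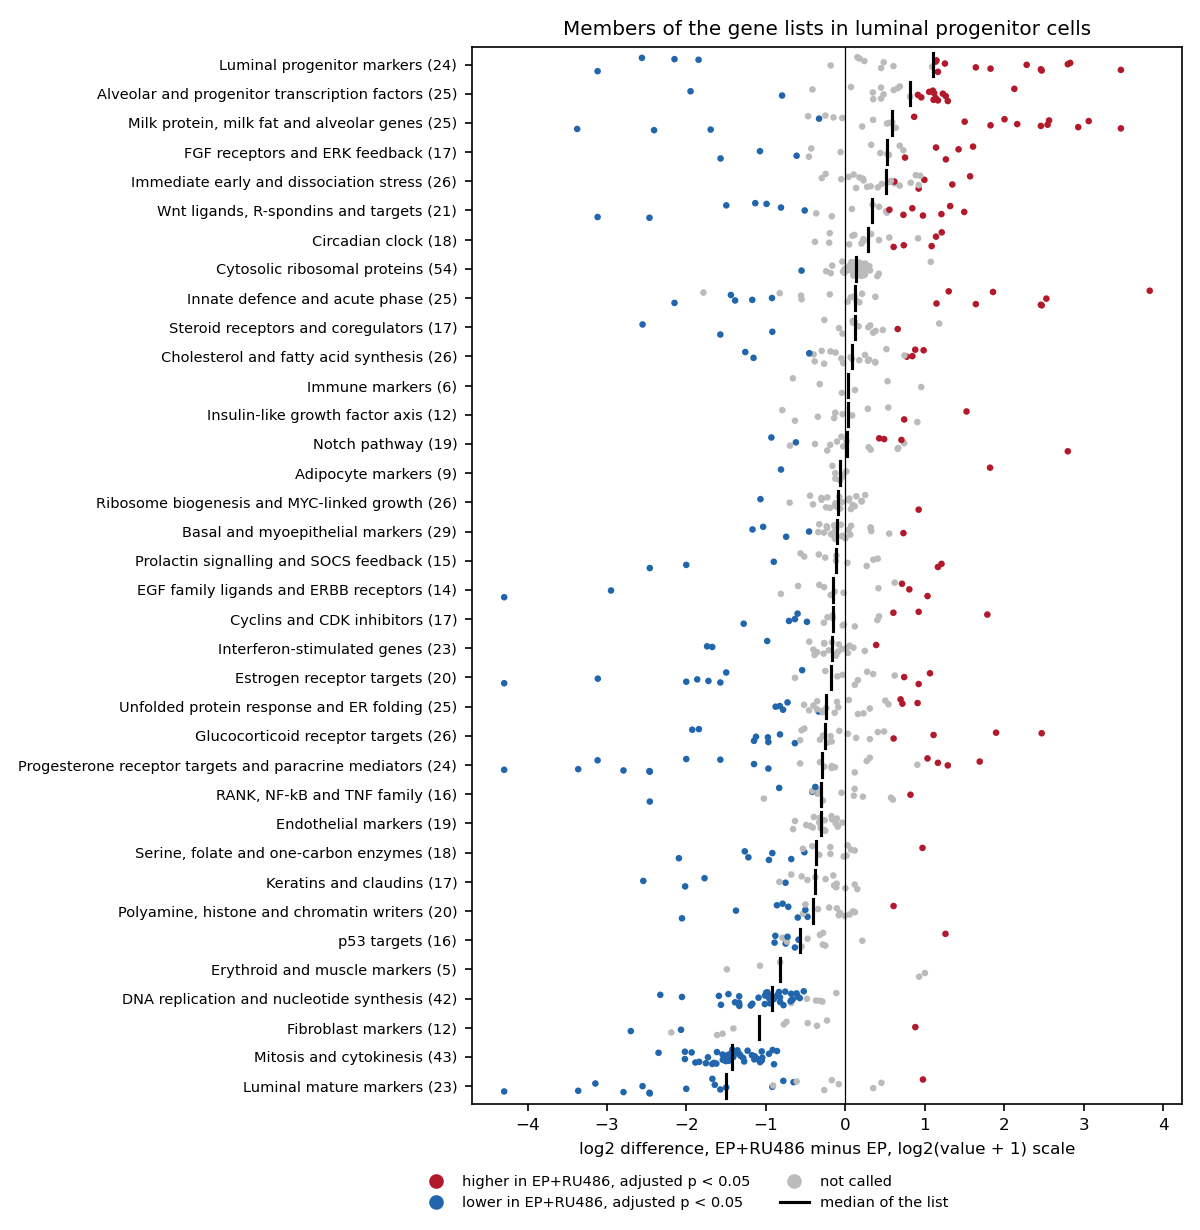
Differences of the tested members of each gene list in LP cells, EP+RU486 minus EP on the log2(FPKM + 1) scale (x axis), with the number tested in brackets (y axis). Each point is a gene, red where higher and blue where lower in EP+RU486 at an adjusted p under 0.05, and black bars are medians, which run from 1.11 for the luminal progenitor markers to -1.50 for the luminal mature markers.

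Several ligands of the progesterone response were lower in EP+RU486, though not in every mouse, and others were higher or not called. Of 24 tested progesterone receptor targets and paracrine mediators, 10 fell and 4 rose, with a median of -0.29. Without mouse 311 the counts were 11 and 5. When other single libraries were left out, 9 or 10 fell and 1 to 3 rose, and when EP+RU486 and EP were fitted alone, 6 fell and 1 rose. The EP+RU486 mice lay wholly below the EP mice at 4 of the 24 and wholly above at 2, against 10.9% and 9.84% of all genes tested. Of these 24 genes, 8 are also markers of luminal mature cells, and 7 of the 8 fell. The mean of all luminal mature markers lay at -0.66 to 0 in EP+RU486 and at -0.46 to 1.77 in EP, and its part in these differences was not tested. Pgr itself, the progesterone receptor, measured 1.40, 0.392, 0.582 and 0.306 in EP+RU486, against 5.71, 0.946, 4.11 and 7.08 in EP (-1.57, SE 0.34, adjusted p = 4.08e-03). The other 3 EP mice lay above every EP+RU486 mouse, and mouse 311 lay within their range.

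Areg, the EGF receptor ligand of hormone-sensing cells, showed the largest fall of all named genes. It measured 19.1, 5.46, 6.29 and 5.33 in EP+RU486, against 187, 41.3, 367 and 303 in EP, without overlap (-4.29, SE 0.57, adjusted p = 1.57e-04). Rspo1, a secreted enhancer of Wnt signals, measured 5.89, 4.14, 4.34 and 5.73 in EP+RU486, against 128, 20.9, 98.5 and 24.9 in EP (-3.12, SE 0.45, adjusted p = 2.59e-04), again without overlap. Tnfsf11, which encodes RANKL, measured 2.31, 0.886, 1.24 and 0.886 in EP+RU486, against 19.6, 1.22, 8.54 and 54.6 in EP (-2.46, SE 0.65, adjusted p = 0.0141), a call lost when EP+RU486 and EP were fitted alone (adjusted p = 0.0862). Wnt4 measured 3.04, 1.25, 1.31 and 1.24 in EP+RU486, against 21.4, 2.30, 21.2 and 25.6 in EP (-2.46, SE 0.50, adjusted p = 2.94e-03). For Tnfsf11, Wnt4 and the chemokine gene Cxcl15 the EP value of mouse 311 lay within the range of EP+RU486. Without that mouse the differences were -4.97 for Areg, -3.29 for Tnfsf11, -3.17 for Wnt4 and -4.17 for Cxcl15, and without mouse 327 that of Tnfsf11 was -1.74.

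Calca, which encodes calcitonin and is known as a progesterone-responsive gene of luminal cells, measured 37.6, 3.66, 3.56 and 3.80 in EP+RU486, against 103, 3.92, 71.5 and 242 in EP (-2.79, SE 0.92, adjusted p = 0.0436). This call was lost when any library but EP+RU486 mouse 304 or EP mouse 311 was left out, with an adjusted p of up to 0.13. It was also lost when EP+RU486 and EP were fitted alone (adjusted p = 0.158) and without the filter (adjusted p = 0.06015 in limma). With the shared lowest value subtracted, the difference was -3.88 and the call was lost as well (adjusted p = 0.0516 in limma). The difference was -3.95 without mouse 311 and -2.075 without mouse 327. Gas6, a ligand of TAM receptors, went the other way, with 628, 568, 661 and 722 in EP+RU486, against 163, 314, 166 and 182 in EP (1.69, SE 0.18, adjusted p = 2.10e-05). Stat5a, the transcription factor of prolactin signalling, averaged 82.1 ± 10.8 in EP+RU486 and 67.8 ± 7.66 in EP and was not called (0.27, adjusted p = 0.348); its mean in sham was 19.6.

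Of 17 tested steroid receptors and coregulators, 3 fell and 1 rose, a share near the 20.9% called among all genes, and 3 rose without mouse 311. Foxa1, the pioneer factor of receptor-positive luminal cells, measured 4.09, 2.59, 2.45 and 2.53 in EP+RU486, against 29.7, 5.27, 21.6 and 59.3 in EP (-2.55, SE 0.49, adjusted p = 2.17e-03), and -3.17 without mouse 311. Esr1, the estrogen receptor, averaged 3.13 ± 0.65 in EP+RU486 and 7.48 ± 3.90 in EP (-0.92, adjusted p = 0.0497), a call lost without any library but mouse 311, with an adjusted p of up to 0.152. Without mouse 327 the difference of Esr1 was -0.65. The glucocorticoid receptor Nr3c1 averaged 7.32 ± 1.49 in EP+RU486 and 5.34 ± 0.71 in EP and missed the threshold (0.38, adjusted p = 0.0547).

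The luminal mature markers as a list were lower. Of 23 tested, 15 fell and 1 rose, with a median of -1.50, and 8 fell and 1 rose when only the 2 groups were fitted. With single libraries left out, 11 to 16 fell. The EP+RU486 mice lay wholly below the EP mice at 5 of the 23 and wholly above at 2, against 10.9% and 9.84% of all genes tested. Ly6a, a surface protein of these cells, measured 55.8, 48.6, 42.6 and 47.3 in EP+RU486, against 155, 78.4, 182 and 248 in EP (-1.64, adjusted p = 4.59e-04). Prlr, the prolactin receptor, measured 62.5, 42.0, 33.6 and 34.0 in EP+RU486, against 244, 40.6, 210 and 396 in EP (-2.002, SE 0.49, adjusted p = 9.98e-03), and -2.68 without mouse 311. Its call was lost when EP+RU486 and EP were fitted alone (adjusted p = 0.0651). Its mean in sham was 129.5, above that of EP+RU486. Wnt7b was the member that rose, to 11.5 ± 1.97 in EP+RU486, against 5.48 ± 1.94 in EP (0.98, adjusted p = 0.0109), a call lost without both mice 311 and 327 (adjusted p = 0.0991).

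Targets of the other steroid receptors were divided. Of 26 tested glucocorticoid receptor targets, 8 fell and 4 rose, and with single libraries left out 6 to 9 fell and 1 to 4 rose. Fkbp5, a chaperone component and classical target of this receptor and of the progesterone receptor, measured 8.33, 7.88, 5.45 and 9.08 in EP+RU486, against 17.8, 9.69, 12.3 and 28.5 in EP (-0.97, SE 0.25, adjusted p = 0.0121), a call lost when EP+RU486 and EP were fitted alone (adjusted p = 0.0613). Glul, which makes glutamine, averaged 20.2 ± 2.59 in EP+RU486 and 88.2 ± 38.7 in EP (-1.93), and the metallothionein Mt1 averaged 296 ± 12.6 in EP+RU486 and 599 ± 169 in EP (-0.97), both without overlap. Tsc22d3 and Zbtb16, further targets shared by both receptors, differed by -0.57 and -0.32 and were not called (adjusted p = 0.277 and 0.546). Per1, a clock gene that glucocorticoids induce, was higher at 6.26 ± 0.23 in EP+RU486, against 3.79 ± 0.60 in EP (0.61, adjusted p = 0.0445), with a call lost when any library but that of mouse 311 was left out, at an adjusted p of up to 0.124, or without both mice 311 and 327 (adjusted p = 0.0793). Of 20 tested estrogen receptor targets, 8 fell and 3 rose, and 7 fell and 1 rose without mouse 322 or mouse 327. Stc2, a secreted glycoprotein, and Myb, a transcription factor, differed by -3.12 and -1.86, and Igf1r, the receptor of insulin-like growth factor, by 0.74. Without mouse 311 the difference of Stc2 was -3.77.

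A search of the 250 bases before the start for a loose palindromic form of the hormone response element shared by the progesterone and glucocorticoid receptors, found it in 5 of 1003 lower genes with a promoter (0.499%) and in 2 of 776 higher genes. Its share was 0.269% of the tested genes and 0.381% of all promoters. A lack of these letters in so short a window says nothing of binding elsewhere.

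Markers of the progenitors themselves were more often higher than lower in EP+RU486. Of 24 tested luminal progenitor markers, 12 rose and 4 fell, with a median of 1.11, and 11 rose and 4 fell without mice 311 and 327. Without mouse 327 alone the median was 0.64. Tspan8, a tetraspanin of the cell surface, measured 119, 126, 126 and 112 in EP+RU486, against 14.0, 47.0, 17.7 and 5.28 in EP (2.83, SE 0.41, adjusted p = 2.54e-04). Cd14, a coreceptor for bacterial lipopolysaccharide used to sort these cells, averaged 271 ± 72.4 in EP+RU486 and 101 ± 75.6 in EP (1.64, adjusted p = 7.87e-03). Hey1, a Notch target, measured 83.5, 97.9, 78.8 and 78.3 in EP+RU486, against 6.46, 68.3, 6.22 and 5.002 in EP (2.80, adjusted p = 8.67e-03), and 3.63 without mouse 311. Kit averaged 45.0 ± 8.19 in EP+RU486 and 37.3 ± 20.3 in EP and was not called (0.45, adjusted p = 0.44). Elf5, the factor that sets the alveolar fate, measured 25.6, 25.6, 25.3 and 21.8 in EP+RU486, against 12.6, 20.1, 12.2 and 3.44 in EP (1.17, SE 0.34, adjusted p = 0.0231). That call was lost without mouse 304, 308 or 324, at an adjusted p of up to 0.0547, and when EP+RU486 and EP were fitted alone (adjusted p = 0.0936). Bex1 and Atp6v1c2, listed among the same markers, fell by 1.85 and by 2.56 in EP+RU486. Rspo1, also on this list, had its largest fall (-3.12).

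Of 25 tested transcription factors of the alveolar and progenitor lineage, 12 rose and 2 fell, with a median of 0.82, and the same counts were found without both mice. Without mouse 304 or 308, or with EP+RU486 and EP fitted alone, 8 rose, and without mouse 327 the median was 0.52. Runx2, a transcription factor of mammary epithelium and bone, averaged 2.27 ± 0.43 in EP+RU486 and 0.524 ± 0.330 in EP, and Foxc1 14.6 ± 1.69 in EP+RU486 and 7.53 ± 2.42 in EP, each without overlap. Id3, an inhibitor of helix-loop-helix factors, was the larger of the falls, to 22.7, 20.8, 26.9 and 20.0 in EP+RU486, against 122, 29.2, 109 and 163 in EP (-1.95, adjusted p = 2.04e-03).

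Of 25 tested milk protein, milk fat and alveolar genes, 11 rose and 4 fell, with a median of 0.59. Against sham the median of the list was -0.81 in EP+RU486 and -1.3 in EP. Without mice 311 and 327, 13 rose and 2 fell, and without mouse 304 or mouse 324, 1 fell. Csn3, the casein that keeps micelles in solution, measured 2147, 2767, 1958 and 2380 in EP+RU486, against 137, 925, 165 and 86.2 in EP (3.47, SE 0.49, adjusted p = 2.30e-04). Lalba, the lactose synthase cofactor, averaged 248 ± 76.4 in EP+RU486 and 54.6 ± 73.9 in EP (2.93), and Spp1, which encodes osteopontin, averaged 1148 ± 571 in EP+RU486 and 191 ± 225 in EP (3.06). Mouse 311 was the highest EP mouse in all 3, and without it the differences were 4.19, 3.73 and 3.75. In sham, Csn3, Lalba and Spp1 averaged 2812, 510.5 and 2343, each above EP+RU486. Ltf, the iron-binding protein lactoferrin, measured 1115, 822, 843 and 1049 in EP+RU486, against 192, 175, 235 and 109 in EP (2.46, SE 0.36, adjusted p = 2.51e-04). Cel, a milk lipase, averaged 187 ± 36.7 in EP+RU486 and 36.6 ± 29.1 in EP (2.57). The milk fat genes Xdh and Btn1a1, whose proteins coat the secreted fat globule, differed by 2.55 and 2.16.

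Of the calcium-sensitive caseins, Csn2, Csn1s1 and Csn1s2a fell, the last 2 with calls that rested on single libraries, and Csn1s2b did not reach the filter. Csn2, which encodes beta-casein, measured 2.67, 5.67, 1.53 and 3.93 in EP+RU486, against 77.4, 43.7, 31.4 and 30.1 in EP, without overlap (-3.38, SE 0.65, adjusted p = 2.34e-03). The shared lowest value of Csn2 is 1.27, near the 1.53 of mouse 324, so its lowest levels are uncertain. Csn1s1 measured 3.88, 14.9, 3.24 and 16.9 in EP+RU486, against 84.2, 58.9, 53.3 and 15.8 in EP (-2.41, adjusted p = 0.0352), with overlap through EP mouse 327, and its call was lost without 5 of the 8 libraries in turn. The lost calls were those without mice 304, 324, 306, 311 and 322, at an adjusted p of up to 0.101. Csn1s2a measured 1.27, 2.34, 1.08 and 2.36 in EP+RU486, against 5.23, 18.01, 3.94 and 8.97 in EP (-1.70, adjusted p = 0.0334), without overlap, and its call was lost without mouse 304, 308, 311, 324 or 327, at an adjusted p of up to 0.0829, and without both mice 311 and 327 (-1.04, adjusted p = 0.282). Csn2 measured 2.80, 10.2, 13.3 and 2.31 in EP+TPA and 10.1, 92.4, 54.4 and 13.5 in sham, so that every sham mouse lay above the EP+RU486 mice. Wap, the whey acidic protein, stayed low at 1.30 to 2.92 in EP+RU486 and 0.1995 to 1.93 in EP.

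Casein promoters are known for binding STAT5, whose site was searched as TTCNNNGAA. Of 17 milk members with a promoter, 3 held a match (Csn1s1, Csn2 and Glycam1), against 6.03% of the tested genes and 7.18% of all promoters. The promoters of Csn2 and Csn1s1 are shown, with the match in capitals, and Csn1s1 was chosen for this after its values had been seen.
Csn2 (chr5:87699426-87699675, minus strand): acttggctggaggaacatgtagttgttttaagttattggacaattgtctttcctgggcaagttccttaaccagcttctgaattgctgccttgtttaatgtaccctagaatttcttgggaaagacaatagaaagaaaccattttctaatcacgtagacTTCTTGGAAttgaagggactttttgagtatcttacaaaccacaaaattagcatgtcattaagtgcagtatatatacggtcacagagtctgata
Csn1s1 (chr5:87665958-87666207, plus strand): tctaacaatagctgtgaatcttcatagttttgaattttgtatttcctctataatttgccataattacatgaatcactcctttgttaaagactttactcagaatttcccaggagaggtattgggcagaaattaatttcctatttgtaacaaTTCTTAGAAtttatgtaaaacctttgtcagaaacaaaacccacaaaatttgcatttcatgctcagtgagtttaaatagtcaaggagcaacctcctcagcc
The match lay 93 to 85 bases before the start in Csn2 and 100 to 92 bases before it in Csn1s1.

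Of 15 tested prolactin signalling genes, which act through STAT5, 3 fell and 2 rose. Without mouse 311, 5 fell, and with EP+RU486 and EP fitted alone 1 fell and 1 rose. Ghr, the growth hormone receptor, averaged 32.6 ± 2.73 in EP+RU486 and 13.7 ± 2.67 in EP (1.21, adjusted p = 2.10e-05). The kinase Jak2 averaged 9.69 ± 0.83 in EP+RU486 and 19.8 ± 6.52 in EP (-0.90, adjusted p = 6.26e-03). Socs2, a feedback inhibitor, averaged 16.8 ± 2.02 in EP+RU486 and 29.9 ± 21.4 in EP and was not called (adjusted p = 0.362).

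Innate defence and acute phase genes moved in both directions, 8 up and 5 down of 25 tested, and 3 to 6 down with single libraries left out. Lcn2, which withholds iron from bacteria, measured 2453, 2458, 2091 and 2424 in EP+RU486, against 382, 1323, 399 and 159 in EP (2.47, SE 0.44, adjusted p = 1.11e-03). Hp, which encodes haptoglobin, measured 2185, 1857, 2275 and 2580 in EP+RU486, against 619, 803, 638 and 431 in EP (1.86, SE 0.17, adjusted p = 8.24e-06). Both were without overlap, yet their sham means lay on opposite sides, at 2734 for Lcn2 and 189 for Hp. Complement C3 fell to 39.8 ± 11.4 in EP+RU486, against 91.2 ± 29.3 in EP (-1.17, adjusted p = 2.04e-03). Plac8 and the beta-defensin Defb1 differed by -3.87 and -3.63, and by -4.69 and -4.52 without mouse 311. Outside mouse 304, Defb1 lay at 3.96 to 4.06 in EP+RU486, at or near its shared lowest value of 3.96.

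Lists of local growth signals held genes that rose and genes that fell. Of all genes tested, 9.03% rose and 11.8% fell. Of 21 tested Wnt ligands, R-spondins and targets, 7 rose and 7 fell. Without mouse 308, 4 rose, and with EP+RU486 and EP fitted alone 5 rose and 3 fell. Fzd8, a Wnt receptor, averaged 7.87 ± 1.13 in EP+RU486 and 2.66 ± 1.09 in EP (1.32), and Tcf7, a transcription factor at the end of the pathway, averaged 1.63 ± 0.33 in EP+RU486 and 4.25 ± 0.86 in EP (-0.99), each without overlap. Axin2, a widely used readout of Wnt signals, did not reach the filter, at 0.0563 to 0.0932 in EP+RU486 and 0.308 to 1.26 in EP. Tnfrsf11a, which encodes RANK, the receptor of Tnfsf11, measured 7.71, 7.65, 6.93 and 7.93 in EP+RU486, against 4.28, 6.97, 2.67 and 5.57 in EP and was not called (0.60, SE 0.27, adjusted p = 0.128). Among 16 tested genes of the RANK, NF-kB and TNF family, 4 fell and 1 rose. The number that fell was 1 without mouse 304, 308 or 324, 2 without mouse 306 or 327, and 0 with EP+RU486 and EP fitted alone.

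Of 14 tested EGF family genes, 3 rose and 2 fell, and 4 fell without mouse 311. Epgn, which encodes the ligand epigen, measured 1.59, 0.378, 2.04 and 1.17 in EP+RU486, against 19.5, 4.42, 27.7 and 25.3 in EP (-2.95, SE 0.42, adjusted p = 2.59e-04). Nrg1, the ligand of ERBB3 and ERBB4, averaged 2.67 ± 0.64 in EP+RU486 and 1.08 ± 0.22 in EP (0.81), and Lrig1, which restrains ERBB receptors, averaged 10.4 ± 2.25 in EP+RU486 and 5.95 ± 1.40 in EP (0.71). The FGF receptors were divided, with Fgfr1 at 34.2 ± 5.33 in EP+RU486 and 13.9 ± 4.40 in EP (1.27) and Fgfr2 at 5.66 ± 0.54 in EP+RU486 and 22.3 ± 14.4 in EP (-1.57). Of the 17 genes tested in that list, 5 rose and 3 fell, and 8 rose without mouse 311. In the Notch pathway, 4 rose and 2 fell of 19 tested, and 4 fell without mouse 311, with Heyl lower at 0.362 ± 0.063 in EP+RU486, against 1.10 ± 0.13 in EP (-0.62).

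The 12 largest increases and the 12 largest decreases, among called genes without overlap and with a mean of at least 5 in one group, held several genes outside these lists. Scgb3a1, a small secreted protein of airway and mammary epithelium, measured 91.5, 110, 105 and 168 in EP+RU486, against 10.4, 9.45, 10.8 and 7.75 in EP (3.47, SE 0.32, adjusted p = 8.24e-06). Its mean in sham was 3.96, below that of EP+RU486 and that of EP and near the shared lowest value of this gene (3.66). Ptx3, a secreted pentraxin, had the largest increase, with 78.8, 48.9, 63.8 and 36.1 in EP+RU486, against 1.28, 12.3, 2.83 and 1.01 in EP (3.83, SE 0.59, adjusted p = 4.63e-04), and 4.42 without mouse 311. Genes of the extracellular matrix were among the increases. Prelp, a small leucine-rich proteoglycan, averaged 104 ± 14.8 in EP+RU486 and 13.4 ± 7.46 in EP (2.998), tenascin Tnc 71.7 ± 23.5 in EP+RU486 and 10.4 ± 9.60 in EP (2.95), and the fibulin Fbln7 10.6 ± 1.49 in EP+RU486 and 0.542 ± 0.694 in EP (3.01).

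Apod, a lipid carrier, averaged 149 ± 72.4 in EP+RU486 and 14.3 ± 10.1 in EP (3.46), and Anxa8, an annexin, 54.2 ± 11.3 in EP+RU486 and 6.30 ± 3.73 in EP (3.01). Foxi1, a transcription factor known from ionocytes, measured 29.3, 38.0, 25.7 and 39.2 in EP+RU486, against 1.83, 14.5, 2.74 and 1.501 in EP (2.90), and 3.49 without mouse 311. Among the decreases, Prom2, a pentaspan membrane protein, measured 8.57, 2.81, 2.25 and 3.21 in EP+RU486, against 101, 25.8, 97.9 and 164 in EP (-4.11, SE 0.45, adjusted p = 2.81e-05). Tmem86a, Gipc2, Sftpd and 9530014B07Rik differed by -3.25, -2.75, -2.83 and -3.27, and by -3.99, -3.46, -3.48 and -4.01 without mouse 311. In most of the decreases mouse 304 was the highest EP+RU486 mouse and mouse 311 the lowest EP mouse, and the luminal mature markers showed the same order, whose part in this was not tested.

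**Figure D3:**
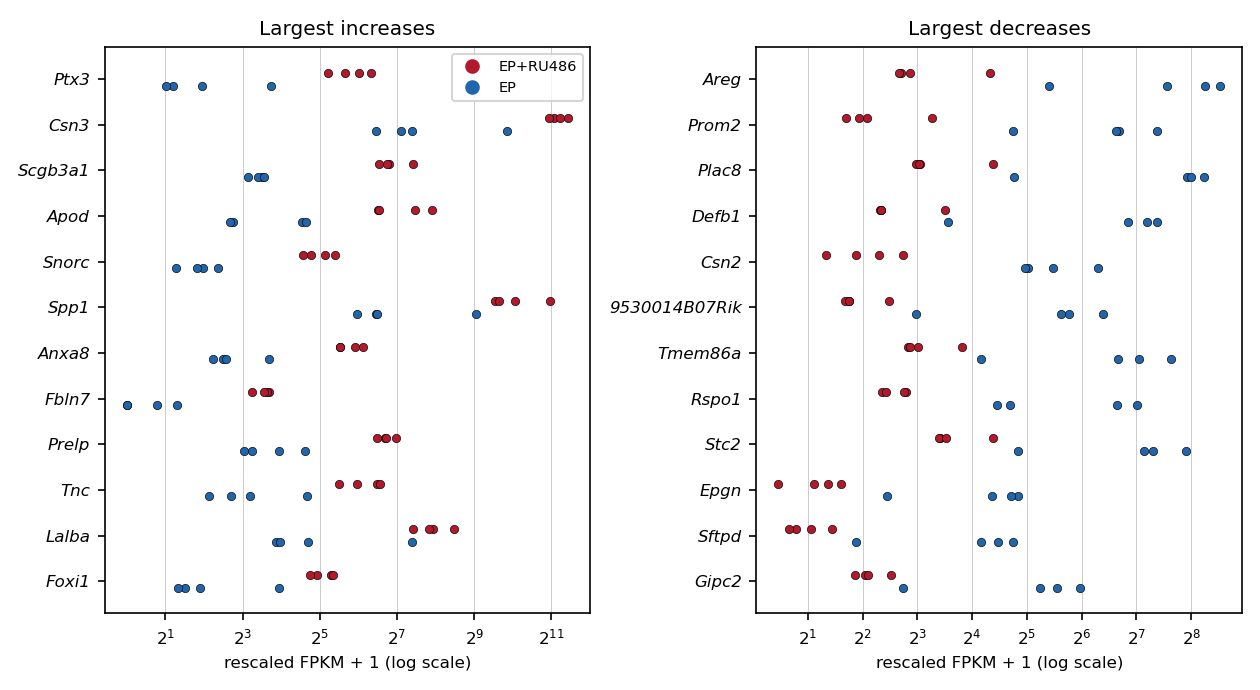
FPKM + 1 on a log scale (x axis) of the 12 genes with the largest increase and the 12 with the largest decrease in LP cells (y axis), with EP+RU486 mice in red just above EP mice in blue, 4 of each per gene. The groups do not overlap, and among the decreases other than Csn2 the lowest EP mouse is mouse 311, for example at 41.3 for Areg.

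Set against the other antagonist, EP+RU486 and EP+TPA gave no gene past the threshold (0%) in limma with Benjamini-Hochberg adjustment. At an unadjusted p under 0.05 there were 199 genes (1.75%), a smaller share than a threshold of 0.05 would pass by chance. The adjusted count was 0 under every alternative. Over all genes the median distance from the estimate to either end of the 95% interval of the difference was 0.337, and it was 0.377 among the 2375 genes called against EP. At 2207 of those genes (92.9%) the whole interval of EP+RU486 minus EP+TPA lay within 1 in either direction. An absent call is no evidence of equal action, so the intervals, and not the p values, bound the difference. They do so gene by gene, on a scale that compresses the changes of genes near 0, so the share within 1 depends partly on level. Both comparisons share the EP+RU486 libraries, and doses are not given for either compound.

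The genes nearest to a difference between the antagonists included interferon-stimulated genes. Ifi27 measured 55.1, 66.6, 59.0 and 82.3 in EP+RU486, against 133, 113, 98.1 and 161 in EP+TPA, without overlap (-0.92, 95% interval -1.33 to -0.52, unadjusted p = 1.76e-04 and adjusted p = 0.9999 in limma). Rtp4, another interferon-stimulated gene, measured 2.38, 5.30, 3.001 and 5.48 in EP+RU486, against 15.5, 9.17, 10.7 and 12.4 in EP+TPA (-1.39, 95% interval -2.07 to -0.71), and the antiviral gene Oas1g averaged 0.638 ± 0.221 in EP+RU486 and 2.20 ± 0.87 in EP+TPA (-0.94). The median of the interferon list was -0.61 against EP+TPA and -0.17 against EP. The mean of the list ran from -0.24 to 0.92 in EP+TPA and from -0.66 to -0.2 in EP+RU486. EP+TPA mouse 336 was the highest of its group for Ifi27 (161) and Oas1g (3.33), though not for Rtp4 (12.4). In sham, Ifi27 averaged 98.6 and Rtp4 9.1. In the other direction Smyd4, 2810408A11Rik and the Wnt receptor Fzd9 had the smallest p, with differences of 0.42, 0.39 and 0.51, and all 6 genes had an adjusted p of 0.9999.

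**Figure D4:**
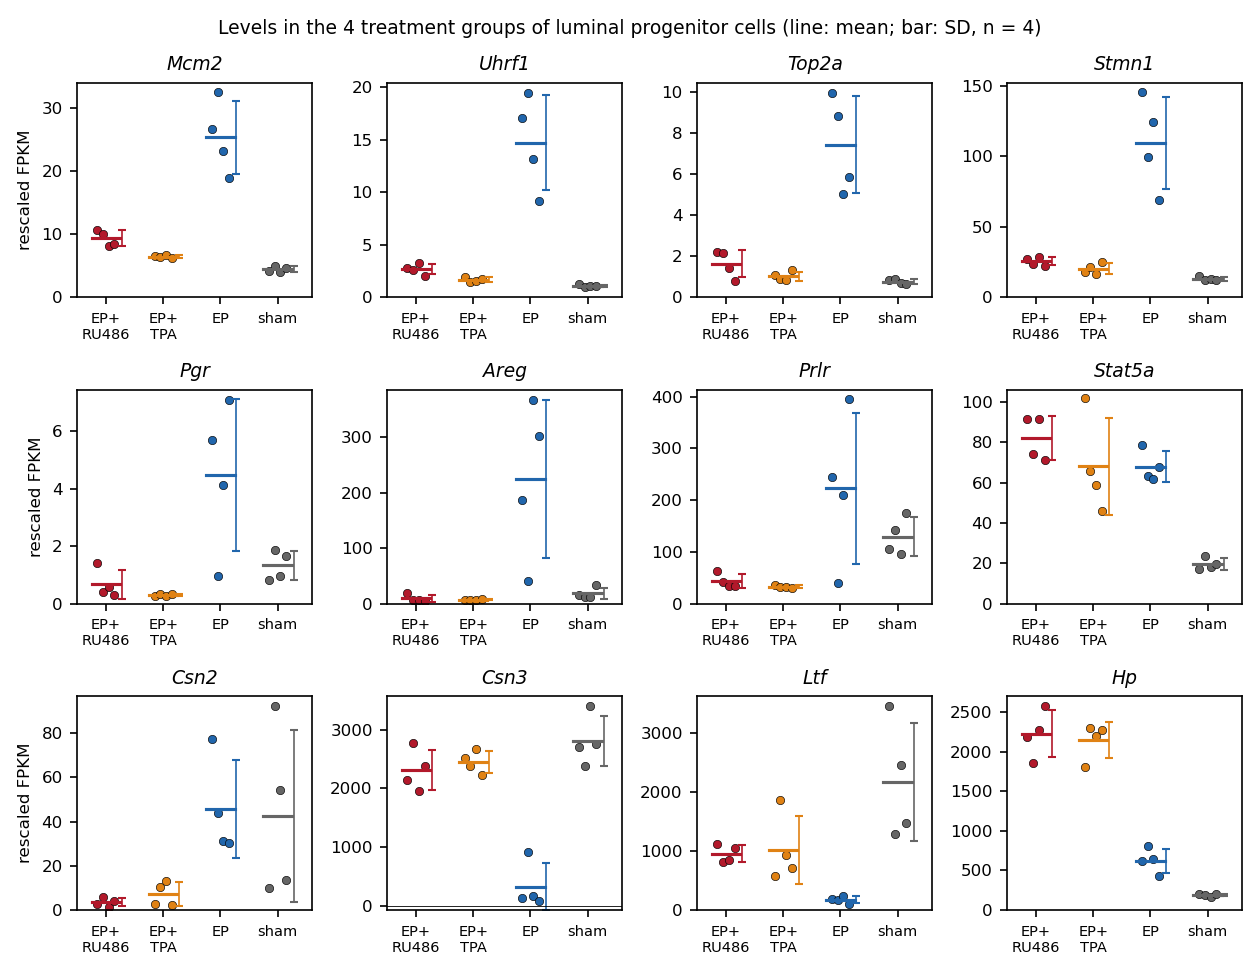
FPKM (y axis, linear) of 12 genes in the 4 treatment groups of LP cells (x axis), with each mouse as a point, the mean as a line and the SD as a bar (n = 4). Areg has means of 9.05 in EP+RU486, 6.73 in EP+TPA, 224 in EP and 18.3 in sham, while Stat5a has means of 82.1 in EP+RU486 and 67.8 in EP, both above the 19.6 of sham.

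The change in LP was then compared with that in the basal fraction. In MSC the same contrast rested on mice 308 and 324 against mice 306 and 322, all of which also gave LP libraries. The LP difference and the MSC difference departed from each other at 105 of 10491 genes (1%), 40 in the positive and 65 in the negative direction. With the mouse as a block the count was 187. The change was the larger in LP at 52 of the 105 genes and the larger in MSC at 53. Without mouse 308 the count was 17, without 311 it was 547 and without 322 it was 668, and without 306, 329 or 304 it was 185, 50 and 72. Leaving out mouse 306, 308, 322 or 324 leaves 1 MSC library in an arm, which was then assumed to vary like the other groups.

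Scgb3a1, Prtn3 and Anxa8 rose in LP and not detectably in MSC. Scgb3a1 differed by 3.47 in LP and by 0.01 in MSC, where it measured 7.68 and 3.66 in EP+RU486, against 6.52 and 4.32 in EP (difference of differences 3.46, SE 0.57). The value of 3.66 is the shared lowest value of Scgb3a1, so its level in MSC is uncertain. Prtn3, a serine protease, measured 7.03, 9.35, 8.52 and 9.62 in LP EP+RU486, against 0.582, 1.55, 0.424 and 0.3195 in LP EP, and its differences were 2.53 in LP and 0.15 in MSC. The difference of differences was 2.38 for Prtn3 (SE 0.32, adjusted p = 1.06e-03) and 2.84 for Anxa8. Maob, a monoamine oxidase, had opposite signs, 1.59 in LP and -2.24 in MSC. The calls of Anxa8, Slc41a2 and Celf2 were lost without mouse 308, which leaves 1 MSC library of EP+RU486.

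Ubd, Oit1, Fut7, Pglyrp1 and Pamr1 were called through their rise in MSC, by 2.75, 2.68, 2.81, 2.57 and 2.01, and differed in LP by -0.12, 0.07, 0.09, -0.92 and -0.72.

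**Figure D5:**
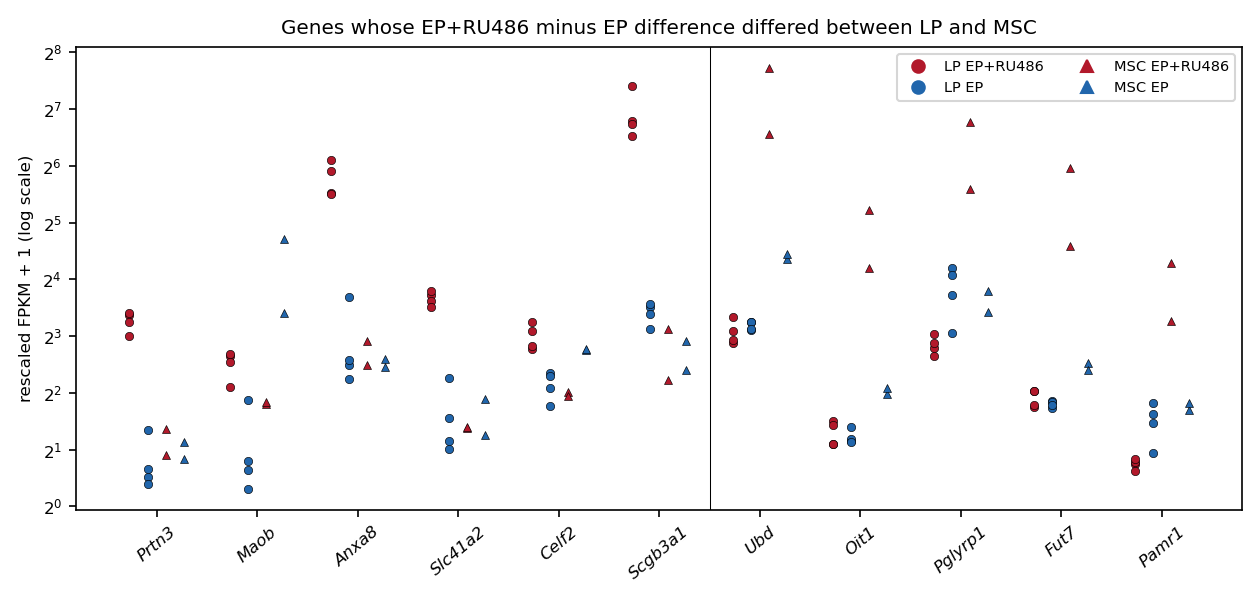
FPKM + 1 on a log scale (y axis) of 11 genes among those with the smallest p for a difference between the LP and MSC changes (x axis), with a positive difference left of the line and a negative one right of it, with LP as circles and MSC as triangles, EP+RU486 in red and to the left of EP in blue within each fraction. Prtn3 lies at 7.03 to 9.62 in LP EP+RU486, above the 0.3195 to 1.55 of LP EP, while its MSC values overlap.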

How the data were processed

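Each library is polyA RNA of cells sorted by flow cytometry, amplified with SMART-Seq v4, which does not mark strand. The values are FPKM deposited by the authors. STAR, Cufflinks, DESeq2 and the build mm9 are named, without versions or order, per the submitters' processing notes. Depth is not given in the sources used here. Within a set of 22 libraries (16 LP, 6 MSC), 9336 genes share one lowest value, which is above 1 for 107 of them. Of 22007 symbols, 27 that read as dates were left out, and 94 matched no current name or synonym. Symbols are printed under their current names, 476 of which were matched through a synonym, and unmatched symbols as deposited.

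Libraries were rescaled by median ratios over 10703 genes. Genes with at least 3 of the 16 LP libraries at 1 or more and above the shared lowest value were fitted as log2(FPKM + 1) with limma 3.58.1 in R 4.3.3 (trend and robust), all LP groups in 1 fit, with Benjamini-Hochberg adjustment and a threshold of 0.05. The procedure was tested on simulated data. The difference between fractions was fitted with MSC in the same model. The LP groups hold different mice, but the same mice gave LP and MSC libraries, by the mouse numbers in the labels, so the mouse was also used as a block. Deviations of the same mouse in both fractions correlated at -0.244, 0.248, 0.386 and 0.277 for mice 306, 308, 322 and 324 (consensus 0.149).

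Genes named are the 12 largest changes in each direction without overlap and with a mean of at least 5 in a group, up to 4 called genes per list by adjusted p, genes fixed by name, and the smallest p between antagonists (3 per direction) and between fractions (6 per direction). Some genes that this rule selects are not reported here. Further genes were named after their values were seen. The 36 lists and the comparison itself were chosen with earlier results of these data known. Alternatives were other scalings, filters and pseudocounts, library weights, fewer groups and libraries left out; leaving out EP mice 311 and 327 together and subtracting the shared lowest value were chosen after seeing the data. For a single gene the smallest exact permutation p of 4 mice against 4 is 0.0286. Labels name separate mice, and sorting order or batch is not given.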

Additional observations from a re-analysis of the deposited data

Results flagged for a closer look

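Among groups of 4 mice, 30 of 354 (8.47%) held a library far from the other 3 by Dixon's criterion, where chance flags about 1 in 20. Mouse 304 of EP+RU486 was the highest of its group for Areg at 19.12 FPKM, Plac8 at 19.91, Defb1 at 10.27, 9530014B07Rik at 4.607, Stc2 at 19.73, Cxcl15 at 15.73, Foxa1 at 4.092, Wnt4 at 3.036 and Calca at 37.6. Its mean was also the highest of the EP+RU486 mice for the progesterone receptor targets (0.14) and the luminal mature markers (0). Among EP mice, mouse 311 was the lowest for Plac8 at 26.22, Defb1 at 10.85, Myb at 1.829, Wnt4 at 2.304 and Plk2 at 126.7. It was the highest EP mouse for Spp1 at 528.1, Gas6 at 314.3, Ghr at 17.64, Hey1 at 68.33 and Fosb at 59.02. In each of these genes mice 304 and 311 lay towards the other treatment group.

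Single flags fell on other mice. In EP+RU486, mouse 324 was lowest for Cdk2 at 8.982 and Lcn2 at 2091, and mouse 329 was highest for Fzd8 at 9.557 and Psmb8 at 78.32 and lowest for Mki67 at 0.1733 and Elf5 at 21.82. In EP, mouse 327 was lowest for the mean of the polyamine, histone and chromatin genes (0.04), and mouse 322 was highest for Krt6a at 41.47.

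In 11 genes the LP difference between EP+RU486 and EP departed from the MSC difference. The LP difference minus the MSC difference was 2.38 for Prtn3, 3.82 for Maob, 2.84 for Anxa8, 2.35 for Slc41a2, 1.65 for Celf2 and 3.46 for Scgb3a1. In the other direction it was -2.87 for Ubd, -2.61 for Oit1, -3.50 for Pglyrp1, -2.72 for Fut7 and -2.73 for Pamr1.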

How the results depend on the processing

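The number of genes called between EP+RU486 and EP (2375) ranged from 1667 to 2937 when single libraries were left out. It was 1446 of 6796 genes under a stricter filter and 1575 when EP+RU486 and EP were fitted alone. Other scalings, pseudocounts and filters gave 2393 to 2687 calls and library weights 3327. With quantile normalization 1337 of the 2624 calls were higher, and without rescaling 723 of 2686, which moves the share of higher genes most. No gene was called between EP+RU486 and EP+TPA under any alternative. Ccnd1, not called, had a difference of -0.0262 without mouse 308, -0.0613 without mouse 322, -0.0424 without mouse 327 and 0.42 without mouse 311. Of 134 named genes called, 106 were called in the same direction in every setting and 0 reversed. The others were lost in at least 1 setting.

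For the difference between fractions (105 genes), the mouse as a replicate block, which pairs LP and MSC libraries of the same mice, gave 187 calls, including all 105. No rescaling gave 65 and no filter 647 of 21656. Leaving out single mice gave 17 to 668. The causes were not tested. Depth limits all values near 0, and it is not known for any library.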

Other observations

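Other gene groups of LP cells showed smaller or mixed differences between EP+RU486 and EP. Of all genes tested, 20.9% were called in either direction, a share near that of the immediate early, keratin and interferon lists. Of 18 tested circadian clock genes, 5 were higher and 0 lower in EP+RU486, and 3 to 6 were higher with single libraries left out. Per2, a repressor of the clock, measured 18.7, 10.1, 11.6 and 13.4 in EP+RU486, against 4.76, 6.18, 6.83 and 5.02 in EP (1.09, SE 0.16, adjusted p = 2.60e-04 in limma). Of 26 tested immediate early and dissociation stress genes, 5 were higher and 0 lower, and 2 to 7 were higher with single libraries left out. Nr4a1, an orphan nuclear receptor induced by stress, averaged 305 ± 68.4 in EP+RU486 and 108 ± 46.9 in EP (1.57, adjusted p = 0.0134 in limma). Of 16 tested p53 targets, 6 fell and 1 rose, and with single libraries left out 3 to 6 fell. Bax, a mediator of apoptosis, averaged 33.6 ± 5.90 in EP+RU486 and 63.8 ± 15.2 in EP (-0.89), while the death receptor Fas averaged 11.01 ± 0.73 in EP+RU486 and 4.35 ± 2.17 in EP (1.26).

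Of 17 tested keratins and claudins, 4 fell, and 2 to 6 fell with single libraries left out. Krt7, a keratin of simple epithelium, measured 52.4, 41.8, 54.4 and 42.9 in EP+RU486, against 217, 65.8, 300 and 338 in EP (-2.02, adjusted p = 1.53e-03 in limma). Of 54 tested cytosolic ribosomal proteins, 0 rose and 1, Rpl30, fell, with a median of 0.14. That call was lost without mouse 304, 308, 329, 311 or 322. Of 23 tested interferon-stimulated genes, 3 fell and 1 rose (0 without mouse 308 or 322), and Bst2, which tethers budding virus, averaged 23.6 ± 5.09 in EP+RU486 and 83.2 ± 25.9 in EP (-1.74). Of 26 tested cholesterol and fatty acid synthesis genes, 4 rose and 3 fell (1 with EP+RU486 and EP fitted alone), and of 25 unfolded protein response genes, 3 rose and 5 fell, a number that ran from 1 to 9 with single libraries left out. None of 19 endothelial, 6 immune and 5 erythroid and muscle markers tested was called by limma. Of 12 tested fibroblast markers, 2 fell and 1 rose, with a median of -1.09, and 7 fell without mouse 322. Of 29 tested basal and myoepithelial markers, 4 fell and 1 rose, and 2 or 3 fell with single libraries left out. Of 9 tested adipocyte markers, 1 fell and 1 rose.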
